A study of Bos taurus with 4 samples.

Results

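The respiratory chain genes were followed in 4 bovine 3′ RNA-sequencing libraries, from small intestine, from muscle, and from organoids grown out of intestinal crypts and taken at passage 5 (P5) or passage 10 (P10). The genes were chosen by a rule on their symbols, with earlier results of these data known. The rule took the nuclear genes named NDUFA, NDUFB, NDUFC, NDUFS or NDUFV with a number, SDHA to SDHD, and those beginning with UQCR, COX4 to COX8 or ATP5, and the 13 protein-coding genes of the mitochondrial genome. It found 98 of the 29792 gene rows, 85 nuclear and 13 mitochondrial, each symbol on a single row. The nuclear genes were 38 of complex I, 4 of complex II, 8 of complex III, 16 of complex IV and 19 of complex V, grouped by symbol. Subunits with other names, such as NDUFAB1 and CYC1, lie outside the rule.

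The cattle were of the Hanwoo breed and over 24 months old. The intestine and muscle libraries are labelled as tissue. Organoids were grown in Matrigel with IntestiCult medium from crypts of the jejunum, and are cultures of epithelial cells that lack the muscle, blood vessels and immune cells of the intact wall. Each condition had 1 library, so that differences could not be set against the spread between replicates and are given without p-values.

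The respiratory chain passes electrons from NADH and succinate to oxygen and uses the energy to pump protons across the inner mitochondrial membrane, and ATP synthase (complex V) uses that gradient to make ATP. Mitochondrial DNA encodes core subunits of complexes I, III, IV and V, all complex II subunits are nuclear, and the organelle's own polymerase transcribes its genome in long polycistronic strands that are cut into single messages. Several complex IV subunits exist as paired paralogues, 1 form found in most tissues (the liver or L form) and 1 in heart and skeletal muscle (the H form).

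The libraries held between 12917720 and 17776273 reads. The labels were compared with marker genes: the 10 skeletal muscle markers summed to 45251 CPM (reads scaled to an equal library total) in muscle and 2.48 or less in the other libraries, and the 10 epithelial markers to 27.2 in muscle, 3172 in intestine, 12534 in P5 and 10208 in P10 organoids. Intestine also carried smooth muscle markers (2275 CPM over 6 genes) and immune markers (6237 over 6 genes), which summed to between 4.49 and 12.6 in the organoids. In these bulk samples, fewer cells of a type and less RNA per cell cannot be told apart. RN18S1, which encodes 18S ribosomal RNA, held 23.6% of all muscle reads and between 0.264% and 4.81% in the other libraries, which lowers every other muscle gene when values are set per library total. Levels below are therefore given as reads or CPM, and differences between libraries as log2 differences of quantile-normalised counts unless another scale is named. Levels are not divided by gene length, since 3′ libraries are designed to give 1 tag for each message. Reads with several alignments were also counted, so reads need not equal numbers of messages.

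The 13 mitochondrial messages took a large and unequal share of the libraries. They had 2990248 reads in intestine, or 16.8% of the library (95% Wilson interval 16.80% to 16.84%), and 2270175 in muscle, or 17.6% (17.55% to 17.59%). In P5 organoids they had 1773934 reads, or 13.04% (13.03% to 13.06%), and in P10 organoids 1257906, or 7.09% (7.08% to 7.11%). Both organoid libraries thus lay below both tissues, and P10 organoids lowest. Without the RN18S1 row in the total, the share was 17.5% in intestine, 23.0% in muscle, 13.7% in P5 and 7.11% in P10 organoids, so that the gap between the tissues depended on whether that row was counted, while the order of the libraries did not. Copies made by PCR cannot be told from separate molecules in these files, and intervals here reflect counting error alone.

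The 85 nuclear genes together varied less. They had 262440 reads in intestine (1.48% of the library), 279448 in muscle (2.16%), 245826 in P5 (1.81%) and 293156 in P10 organoids (1.65%). The ratio of reads from the mitochondrial genes to reads from the nuclear genes, which needs no scaling between libraries, was 11.4 in intestine, 8.12 in muscle, 7.22 in P5 and 4.29 in P10 organoids. Muscle had the highest nuclear share, and intestine had the most mitochondrial reads for each nuclear read. Which library had the lowest nuclear share depended on the total: without the mitochondrial and RN18S1 rows it was 1.87% in intestine, 3.68% in muscle, 2.20% in P5 and 1.78% in P10 organoids, so that P10 organoids and not intestine were lowest.

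**Figure D1:**
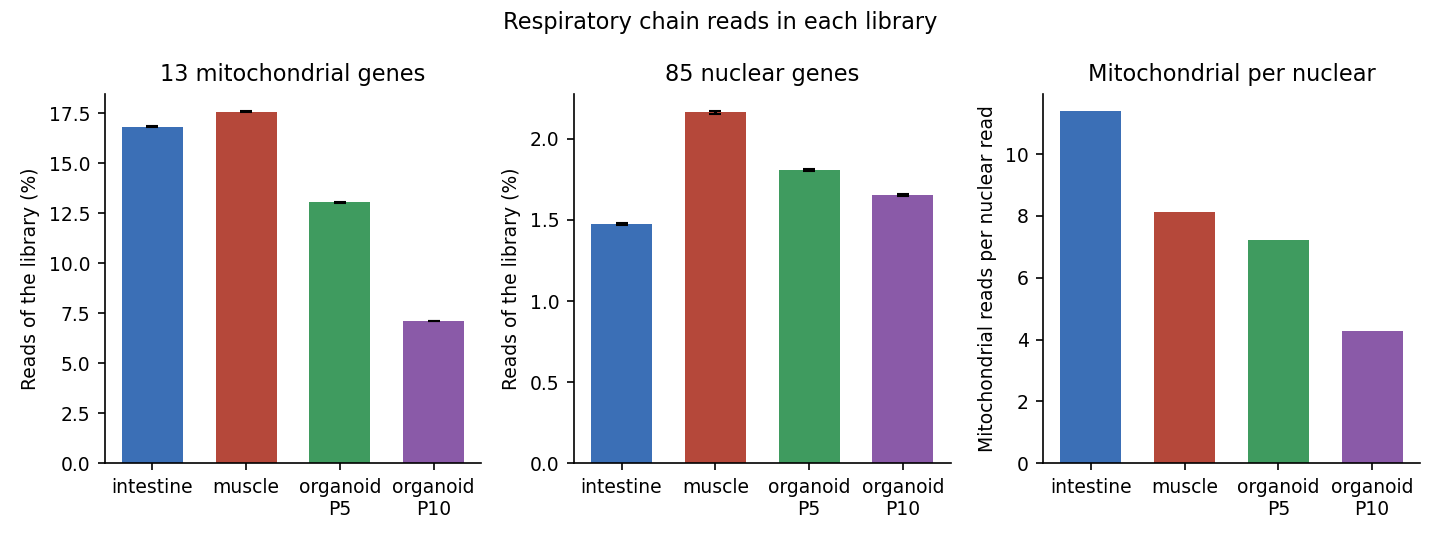
Bars show, for each of the 4 libraries, the percentage of reads on the 13 mitochondrial genes (left), the percentage on the 85 nuclear genes (middle) and the number of mitochondrial reads per nuclear read (right), with 95% Wilson intervals on the percentages. The mitochondrial share is lowest in P10 organoids, at 7.09%, and the nuclear share is highest in muscle, at 2.16%.

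Among the mitochondrial messages, COX1, a catalytic subunit of cytochrome c oxidase (complex IV), differed most between tissues and organoids. It had 43351 reads in intestine and 39652 in muscle, against 266127 in P5 and 241482 in P10 organoids. Its share of the reads of the 13 genes was 1.45% in intestine, 1.75% in muscle, 15.0% in P5 and 19.2% in P10 organoids, so that the tissues and the organoids did not overlap. COX2 and COX3, the other mitochondrial subunits of complex IV, had much closer shares. COX2 held 5.66% in intestine, 6.46% in muscle, 6.73% in P5 and 10.45% in P10 organoids. COX3 held 17.2%, 17.9%, 18.5% and 21.7% in the same order. The ratio of COX1 to COX2 reads was 0.256 in intestine and 0.270 in muscle, and 2.23 in P5 and 1.84 in P10 organoids. COX1 was also the only one of the 13 that stayed above intestine in P10 organoids per library total, 5.58-fold (8.02-fold in P5 organoids).

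ATP6, a subunit of the proton channel of ATP synthase, and CYTB, the mitochondrial subunit of complex III, had lower shares in organoids than in intestine. ATP6 had 531859 reads in intestine, 392812 in muscle, 168035 in P5 and 113405 in P10 organoids, and its share of the 13 was 17.8% in intestine and 17.3% in muscle against 9.47% and 9.02% in P5 and P10 organoids. CYTB had 467560, 264777, 207598 and 120426 reads, or 15.6%, 11.7%, 11.7% and 9.57% of the 13. For CYTB the share in muscle was thus as low as in P5 organoids, while for ATP6 only the organoid libraries were low.

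The 7 mitochondrial subunits of complex I (the ND genes) together held 42.1% of the mitochondrial reads in intestine, 43.6% in muscle, 37.9% in P5 and 30.0% in P10 organoids. ND3 had 417704, 388137, 224853 and 90826 reads in intestine, muscle, P5 and P10 organoids, and its share of the 13 was 14.0%, 17.1%, 12.7% and 7.22%. ND4 had 212124, 181034, 136653 and 65353 reads, and ND5 had 31671, 23034, 12629 and 6577. In each of these the P10 organoids were lowest, also as a share of the 13 genes. ND1 (320480, 190149, 127495 and 96893 reads) and ND2 (238359, 172831, 119132 and 86501 reads) kept nearly the same share in both organoid libraries, 7.19% and 7.70% for ND1 and 6.72% and 6.88% for ND2.

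ND6 is the only one of the 13 that lies on the other strand, where it overlaps the end of ND5. It had 35419 reads in intestine, 31469 in muscle, 51098 in P5 and 30242 in P10 organoids, and its share of the 13 was 2.88% and 2.40% in the organoids against 1.18% and 1.39% in intestine and muscle. Since the strand setting of the counting is not given in the sources used here, reads of ND6 and of its antisense partner cannot be told apart. The ratio of ND6 to ND5 reads was 1.12 in intestine, 1.37 in muscle, 4.05 in P5 and 4.60 in P10 organoids.

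ATP8 and ND4L overlap ATP6 and ND4 in the genome and share a message with them, so reads on the overlap cannot be assigned to 1 gene. ATP8 had 5739 reads in intestine, 29045 in muscle, 12706 in P5 and 1912 in P10 organoids, which was 1.08%, 7.39%, 7.56% and 1.69% of the ATP6 reads. Muscle and P5 organoids were alike in this ratio, and intestine and P10 organoids were both low. ND4L had 1700, 3923, 799 and 430 reads, or 0.801%, 2.17%, 0.585% and 0.658% of the ND4 reads, and stood out in muscle only.

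**Figure D2:**
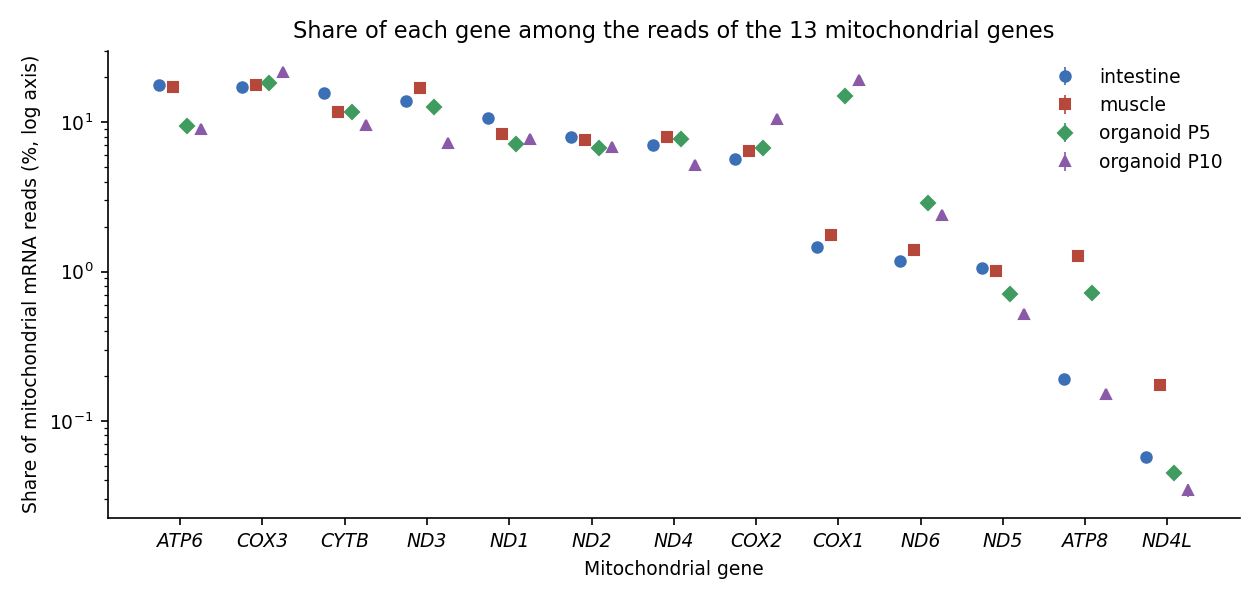
Points show the share of each gene among the reads of the 13 mitochondrial genes (log axis) in intestine, muscle, P5 organoids and P10 organoids, ordered by the share in intestine, with 95% Wilson intervals that are mostly smaller than the points. COX1 stands at 15.0% and 19.2% in the organoids and at 1.45% and 1.75% in the tissues, and ATP8 is high in muscle and P5 organoids.

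Quantile normalisation gives the same value to rows of the same rank, and in each library 8 to 10 of the 13 mitochondrial rows were among the 20 highest rows. On that scale the median log2 difference of the 13 was -0.01 for muscle minus intestine, 0.00 for P5 organoids minus intestine, -0.54 for P10 minus P5 organoids and -0.80 for P10 organoids minus intestine. Per library total the medians were 0.23, -0.51, -1.14 and -1.69. Over all genes with at least 50 reads they were -0.11, 0.07, 0.09 and 0.10 with quantile normalisation. Per library total they were -1.28, 0.13, 0.18 and 0.24. For muscle minus intestine the mitochondrial median thus lay 0.10 above that of all genes with quantile normalisation and 1.51 above it per library total. The nuclear median lay 1.08 and 1.79 above it on the same scales. Per library total all 13 were lower in P10 than in P5 organoids, from 1.18-fold for COX2 to 8.66-fold for ATP8. With quantile normalisation COX2 had the opposite sign, 0.68 higher in P10 organoids on the log2 scale.

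Among the nuclear genes, 82 of the 85 had at least 50 reads in some library. The 3 others are paralogues that were at or near the limit of detection. COX4I2, a complex IV form known from lung, had 3 reads in P5 organoids and none elsewhere. COX6B2, known from testis, had 6 reads in intestine and none elsewhere. COX7B2 had between 1 and 3 reads in each library. Their general forms were abundant: COX4I1 had 13105 reads in intestine, 8424 in muscle, 9215 in P5 and 9715 in P10 organoids, COX6B1 had 2639, 2989, 2674 and 3540, and COX7B had 791, 1595, 1013 and 1269. No difference in the 3 rare forms was detectable at this depth.

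Muscle was compared with intestine first, as the tissue without intestinal epithelium. The 82 nuclear genes that reached 50 reads in 1 of these libraries or both were counted, and 39 were at least 2-fold higher in muscle, 5 at least 2-fold lower and 38 within 2-fold. Over all 13938 genes with as many reads, 24% were at least 2-fold higher and 30.6% at least 2-fold lower. The median log2 difference was 0.97 for the nuclear chain genes and -0.11 for all genes. Per library total these medians were 0.51 and -1.28. On that scale 25 of the 82 were at least 2-fold higher, against 9.71% of all genes. The 5 lower genes were again at least 2-fold lower, against 56.9%. With upper-quartile scaling 64 of the 82 were at least 2-fold higher, against 24.6% of all genes. With quantile normalisation, library totals with and without RN18S1, TMM and upper-quartile scaling, 57 of the 82 were higher in muscle each time, 5 were lower each time and 20 changed direction.

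The complexes were not alike in this comparison. Complex I had the highest median log2 difference between muscle and intestine, 1.12 over 38 genes, with 22 at least 2-fold higher and 1 at least 2-fold lower. These and the counts below stand against 24% of all genes at least 2-fold higher and 30.6% at least 2-fold lower. The grouping is by symbol, so complex I takes in NDUFA4 (2.11), which is found in complex IV. The 1 lower gene is its paralogue NDUFA4L2 (-1.21). The median was 0.83 over the 8 genes of complex III (4 at least 2-fold higher) and 0.83 over the 19 of complex V (6 at least 2-fold higher). The 4 complex II genes, which form the succinate dehydrogenase of the citric acid cycle, had a median of 0.10, and only SDHB was past 2-fold, 1.30 higher on the log2 scale, a call lost per library total (0.96). Complex IV was split, with 6 of 13 genes at least 2-fold higher and 4 at least 2-fold lower. The shares at least 2-fold higher in complexes II and V, 25% and 31.6%, were near that of all genes. Per library total the medians of complexes I, II, III, IV and V were 0.70, -0.39, 0.48, 0.62 and 0.50. On that scale 14, 0, 3, 5 and 3 of their genes were at least 2-fold higher, against 9.71% of all genes. The numbers at least 2-fold lower were 1, 0, 0, 4 and 0, against 56.9%.

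Of the complex I genes, NDUFB2 and NDUFB1, accessory subunits of the membrane arm, had the largest differences. NDUFB2 had 1382 reads in muscle, against 264 in intestine, 387 in P5 and 366 in P10 organoids, a log2 difference from intestine of 3.54 (standard error 0.10), or 2.85 per library total. NDUFB1 had 6650 reads in muscle and 1565, 1938 and 2578 in intestine, P5 and P10 organoids (2.91, standard error 0.04). Both were highest in muscle. NDUFA4, named for complex I but found in complex IV, had 14349 reads in muscle and 5184, 3364 and 5016 in the others (2.11 higher in muscle than in intestine, standard error 0.02).

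The 5 nuclear genes lower in muscle included the general forms of the paired complex IV subunits. COX6A1 had 262 reads in muscle, against 8213 in intestine, 8306 in P5 and 8709 in P10 organoids, a log2 difference from intestine of -3.51 (standard error 0.08). COX8A had 290 reads in muscle and 2545, 4174 and 5308 in the other libraries (-1.68, standard error 0.08). COX7A2 had 141 reads in muscle and 1131, 2064 and 1851 in the others (-1.42, standard error 0.12). In all 3 the muscle library was far below the other libraries. Per library total these differences were larger, -4.51 for COX6A1, -2.67 for COX8A and -2.54 for COX7A2. COX7A2L, a relative of COX7A2 that takes part in joining complexes III and IV, was low in the same way, with 230 reads in muscle and 1643, 2160 and 3697 in the others (-1.36, standard error 0.09, and -2.38 per library total). The fifth was NDUFA4L2, a paralogue of NDUFA4 known as a hypoxia-induced gene, with 27 reads in muscle and 220, 906 and 1224 in intestine, P5 and P10 organoids.

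**Figure D3:**
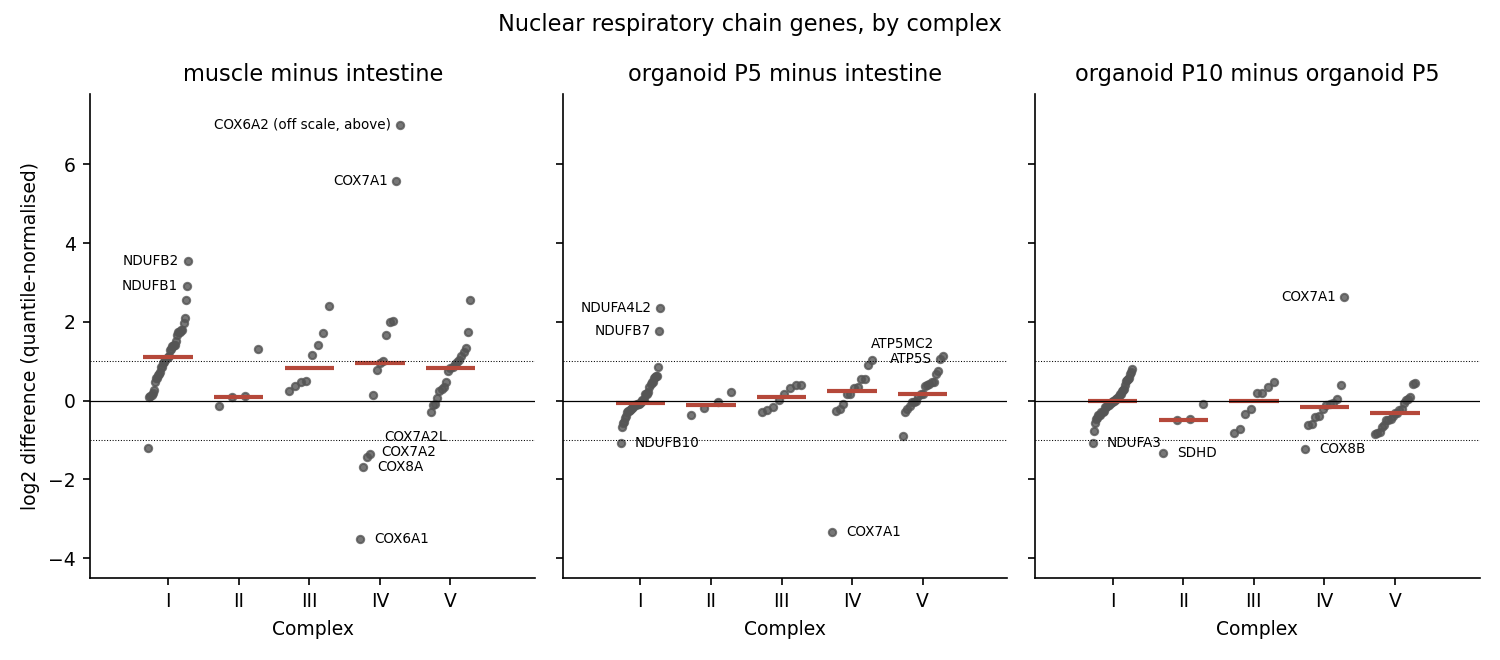
Each point is a nuclear gene that reached 50 reads, placed by complex, and its height is the log2 difference of quantile-normalised counts in 3 comparisons; red lines are medians and dotted lines mark 2-fold, and COX6A2 is drawn at the upper edge because its value lies off the scale. In muscle minus intestine most genes lie above 0 and complex IV is split, while most genes lie within 2-fold in the other comparisons.

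Set against these, the H forms of 2 of the pairs had most of their reads in muscle. COX6A2 had 10128 reads in muscle and none in intestine, P5 organoids or P10 organoids. With 3 reads taken as the limit for a library without reads, its level per library total was at least 4646-fold higher in muscle than in intestine. COX6A2 made up 97.5% of the COX6A1 and COX6A2 reads in muscle (97.2% to 97.8%) and 0% elsewhere. The limit of 3 reads equals a share of 0.037% in intestine, 0.036% in P5 and 0.034% in P10 organoids. COX7A1 had 4596 reads in muscle, 190 in intestine, 11 in P5 and 110 in P10 organoids, and its log2 difference between muscle and intestine was 5.58 (standard error 0.13). Its share of the COX7A1 and COX7A2 reads was 97.0% in muscle, 14.4% in intestine (12.6% to 16.4%), 0.530% in P5 (0.296% to 0.947%) and 5.61% in P10 organoids (4.68% to 6.72%). The 4 shares did not overlap within counting error, and intestine came second.

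The third pair differed. COX8B, the H form of subunit VIII, had 8632 reads in muscle but also 7715 in intestine, 6297 in P5 and 3651 in P10 organoids. It made up 96.7% of the COX8A and COX8B reads in muscle, 75.2% in intestine (74.4% to 76.0%), 60.1% in P5 (59.2% to 61.1%) and 40.8% in P10 organoids (39.7% to 41.8%). COX8B was thus not confined to muscle, and its share was lower in P5 organoids than in intestine and lowest in P10 organoids. The intestine library also held smooth muscle and immune markers, and their part in this order was not tested. No skeletal muscle marker had over 39 reads in intestine or over 7 in either organoid library, and COX8B had at least 3651 reads in each. Whether skeletal muscle cells gave any of the COX8B reads was not tested. Reads with several alignments were counted, so reads shared by paralogues, if any, could not be separated. How alike the COX8A and COX8B sequences are was not checked.

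Over both members, the pairs kept more even levels than their forms. The COX6A1 and COX6A2 reads together came to 462 CPM in intestine, 804 in muscle, 611 in P5 and 491 in P10 organoids, and the COX8A and COX8B reads to 577, 691, 770 and 505. The COX7A1 and COX7A2 reads came to 74.3, 367, 153 and 111, a wider range with muscle highest.

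**Figure D4:**
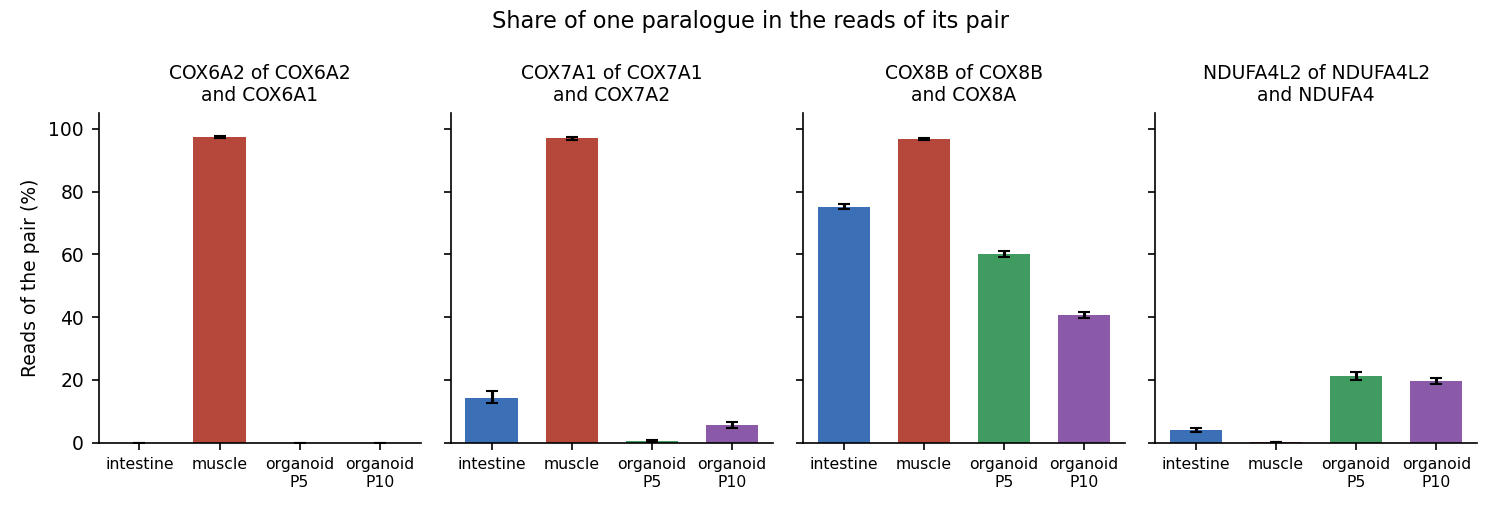
Bars show the percentage of reads on COX6A2, COX7A1, COX8B and NDUFA4L2 within the reads of each gene and its paralogue, in each library, with 95% Wilson intervals. COX6A2 stands at 97.5% and COX7A1 at 97.0% in muscle, both at 14.4% or less elsewhere, COX8B is at 40.8% or more in every library, and NDUFA4L2 is highest in the organoids.

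Organoids at P5 were then compared with intestine, the tissue of origin. Of 81 nuclear chain genes with at least 50 reads, 74 were within 2-fold, 5 at least 2-fold higher (20.2% of all 14060 genes) and 2 at least 2-fold lower (20.2% of all genes). The median log2 difference was 0.03, against 0.07 for all genes. The medians of complexes I, II, III, IV and V lay between -0.10 and 0.24. These shares, 5 and 2 of 81, describe the 2 libraries and were not tested.

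The 5 higher genes were NDUFA4L2, NDUFB7, ATP5MC2, ATP5S and COX7A2. NDUFA4L2 had a log2 difference of 2.37 (standard error 0.12) and held 21.2% of the NDUFA4 and NDUFA4L2 reads in P5 (20.02% to 22.47%) and 19.6% in P10 organoids, against 4.07% in intestine and 0.188% in muscle. NDUFB7, an accessory subunit of complex I, had 351 reads in intestine, 863 in muscle, 1014 in P5 and 1543 in P10 organoids (1.78 higher in P5 organoids than in intestine, standard error 0.10). Both were higher than in intestine at either passage. ATP5MC2 is 1 of 3 genes for the c subunit, which forms the rotating ring of ATP synthase. It had 5349 reads in intestine, 6708 in muscle, 9549 in P5 and 7357 in P10 organoids (1.14 higher in P5 organoids than in intestine, standard error 0.02), and its share of the reads of the 3 genes was 20.6%, 34.9%, 31.4% and 25.7%. ATP5S, listed as DMAC2L in RefSeq, had 141, 242, 206 and 179 reads, and its difference was 1.07 (standard error 0.19), or 0.93 per library total. COX7A2, the general form described above, was 1.04 higher. NDUFB7 (2.56), ATP5S (2.56) and ATP5MC2 (1.13, or 0.79 per library total) were also higher in muscle than in intestine. NDUFA4L2 (-1.21) and COX7A2 (-1.42) were lower there.

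The 2 lower genes were COX7A1, at 0.809 CPM in P5 organoids (exact Poisson 95% interval 0.404 to 1.45) and 10.7 in intestine, and NDUFB10, an accessory subunit of complex I. NDUFB10 had 2830 reads in intestine, 1586 in muscle, 1240 in P5 and 1599 in P10 organoids (-1.09 in P5 organoids against intestine, standard error 0.06), and per library total it was 0.80 lower on the log2 scale. ATP5ME and NDUFS7 were the next lowest, at -0.89 and -0.66. ATP5ME, a small membrane subunit of ATP synthase, had 2882, 2955, 1450 and 2574 reads in intestine, muscle, P5 and P10 organoids, and NDUFS7, a core subunit of complex I that binds an iron-sulfur cluster, had 2103, 2394, 1209 and 1500.

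P10 organoids were compared with the same intestine library, which both organoid comparisons therefore share. Of 81 genes, 73 were within 2-fold, 4 at least 2-fold higher (25.5% of all genes) and 4 at least 2-fold lower (23.6% of all genes), and the median was -0.03. The higher genes were NDUFA4L2 (2.36), NDUFB7 (1.95), NDUFA11 (1.15) and NDUFS6 (1.13), and the lower genes COX8B (-1.32), NDUFB10 (-1.15), NDUFA3 (-1.12) and SDHD (-1.11). Per library total 7 were at least 2-fold higher (26.7% of all genes) and 1 at least 2-fold lower (22.9% of all genes). The 4 higher genes and COX8B stayed past 2-fold under each of the 5 scalings. NDUFB10 (-0.82 per library total), NDUFA3 (-0.89) and SDHD (-0.78) did not. All but COX8B and SDHD belong to complex I by their names, as do 38 of the 81 genes counted. Among them NDUFA4L2 is a paralogue of NDUFA4, which is found in complex IV.

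Between P10 and P5 organoids, 77 of 81 nuclear genes were within 2-fold, 1 was at least 2-fold higher in P10 (12.6% of all 12735 genes) and 3 were at least 2-fold lower (12.2% of all genes). The median log2 difference was -0.12, against 0.09 for all genes. The median was -0.02 for complex I, -0.48 for complex II, -0.01 for complex III, -0.16 for complex IV and -0.32 for complex V. SDHD, a membrane anchor of succinate dehydrogenase, had 1852 reads in intestine, 901 in muscle, 1946 in P5 and 1072 in P10 organoids (-1.33, standard error 0.06). SDHB (-0.47) and SDHC (-0.49) were also lower in P10 organoids, under each of the 5 scalings. The catalytic subunit SDHA differed far less between the passages (4585 reads in P5 and 5693 in P10 organoids, -0.07). COX8B was 1.22 lower on the log2 scale (standard error 0.03), whereas COX8A was 0.05 lower. NDUFA3, an accessory subunit of complex I, had 472, 637, 384 and 254 reads in intestine, muscle, P5 and P10 organoids (-1.06, standard error 0.11), and per library total its difference was -0.98. ATP5MC2 was next at -0.85.

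The gene higher in P10 organoids was COX7A1 (2.64, standard error 0.49), which rested on 11 reads in P5 and 110 in P10 organoids. The next were all of complex I, to which 38 of the 81 nuclear genes belong by symbol. NDUFV1, which binds NADH and the flavin, had 1473, 736, 1121 and 2546 reads in intestine, muscle, P5 and P10 organoids (0.80 higher in P10, standard error 0.05). NDUFA7 had 1877, 1515, 1582 and 3360 reads (0.72), and NDUFA11 had 1762, 1292, 2176 and 4601 (0.68). P10 organoids had the most reads of these 3 genes, also per library total. On other scales muscle could be higher. With quantile normalisation NDUFA7 was 0.68 higher than intestine in muscle and 0.61 in P10 organoids. With upper-quartile scaling all 3 genes were higher in muscle than in P10 organoids.

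Of the 81 nuclear genes, 50 were lower in P10 organoids under each of the 5 scalings and 24 higher. The nuclear median lay 0.21 below that of all genes with quantile normalisation and 0.29 below per library total. The mitochondrial median lay 0.63 and 1.32 below it on the same scales. Marker genes also differed between these libraries. The 10 enterocyte markers summed to 5025 CPM in P5 and 298 in P10 organoids, and the 10 proliferation markers to 636 and 1233. Their part in the result was not tested.

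Other genes of the pathway came from lists by role, and each count is given beside the share of all genes past 2-fold in that comparison. The adenine nucleotide translocators, which exchange ADP and ATP across the inner membrane, also had a tissue form in these libraries. SLC25A4, the heart and muscle form, had 23058 reads in muscle and 1338, 1012 and 1474 in intestine, P5 and P10 organoids (4.54 higher in muscle than in intestine). SLC25A5 had 13 reads in muscle and 1752, 5221 and 5418 in the others (-5.65, or -6.61 per library total), and SLC25A6 had 829 in muscle and 12847, 12153 and 20407 in the others (-2.78, or -3.49 per library total). Of the 11 carriers and electron-transfer genes in all, 3 were at least 2-fold higher in muscle (24% of all genes) and 2 at least 2-fold lower (30.6% of all genes). CKMT2, the muscle mitochondrial creatine kinase, had 4662 reads in muscle and between 1 and 13 elsewhere, and MB (myoglobin) had 145227 reads in muscle and between 21 and 34 elsewhere.

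**Figure D5:**
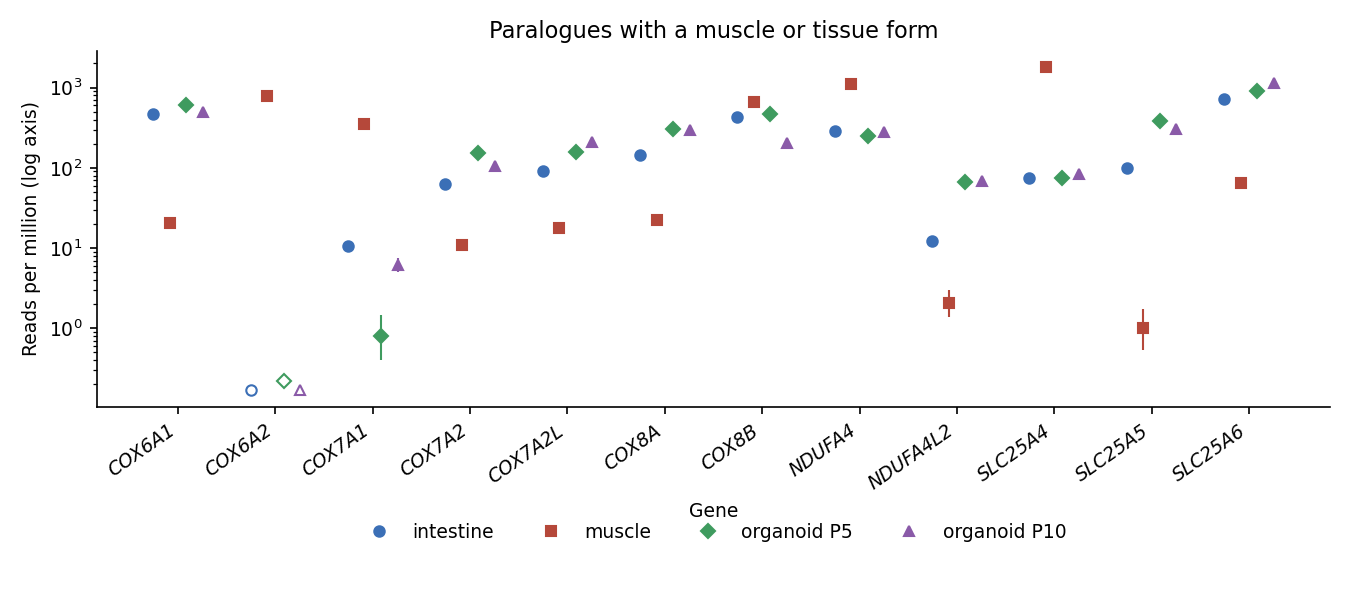
Points show the level of each gene in CPM (log axis) in the 4 libraries, with exact Poisson 95% intervals; open points are libraries with 3 reads or fewer, drawn at the level of 3 reads. COX6A2, COX7A1 and SLC25A4 are highest in muscle, where COX6A1, COX7A2, COX7A2L, COX8A, SLC25A5 and SLC25A6 are lowest, and COX8B is high in every library.

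Of 44 assembly factors with enough reads, 21 were at least 2-fold higher in muscle (24% of all genes) and 4 at least 2-fold lower (30.6% of all genes). Per library total the numbers were 9 (9.71% of all genes) and 11 (56.9% of all genes). The list's median log2 difference was 0.85 with quantile normalisation and -0.17 per library total, so its sign depended on the scaling. Relative to all genes, more of the list was higher and less of it lower on both scales. NDUFAF6 (17 reads in intestine and 147 in muscle, 5.42) and PET117 (12 and 97, 5.41) had the largest positive differences, which were 3.57 and 3.48 per library total. SCO2, a copper chaperone of complex IV, had 225 reads in intestine and 12 in muscle (-2.63, or -3.77 per library total). Set against intestine, P5 organoids had 8 of 43 at least 2-fold higher and 2 at least 2-fold lower (20.2% of all genes in each direction). The higher ones included ATPAF2, an assembly factor of ATP synthase, with 97 reads in intestine, 130 in muscle, 397 in P5 and 1068 in P10 organoids. HIGD1A, a hypoxia-inducible gene linked to complexes III and IV, had 265, 108, 1077 and 548.

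Of 12 genes that copy, transcribe or process the mitochondrial genome, 2 were at least 2-fold higher in P10 than in P5 organoids (12.6% of all genes), POLG (457 and 1394 reads) and POLRMT (19 and 76 reads), and none was at least 2-fold lower. POLG is the polymerase that replicates mitochondrial DNA and POLRMT the polymerase that transcribes it. TFAM, which packages mitochondrial DNA and starts its transcription, had 331 reads in P5 and 531 in P10 organoids (0.18 higher). Of the 7 regulators of mitochondrial biogenesis, 3 were at least 2-fold lower in P10 organoids (12.2% of all genes). PPARGC1A, the coactivator PGC-1α, had 559 reads in intestine, 492 in muscle, 1293 in P5 and 418 in P10 organoids (-2.10), PPARGC1B had 794, 96, 933 and 591 (-1.12), and PPARD had 351, 57, 435 and 193 (-1.60).

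Of the 12 citric acid cycle genes, 11 were within 2-fold between the organoid passages and OGDH, a subunit of the 2-oxoglutarate dehydrogenase complex, was at least 2-fold lower (540 reads in P5 and 179 in P10 organoids, -2.00), against 12.2% of all genes. CYCS, cytochrome c, had 1560 reads in intestine, 1838 in muscle, 2295 in P5 and 1272 in P10 organoids (-1.32 between the passages), and VDAC1, a pore of the outer membrane, had 2249, 2314, 4272 and 2735 (-1.06).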

How the data were processed

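QuantSeq 3′ mRNA libraries, 1 per condition, were sequenced as single-end reads. The authors aligned the reads with Bowtie2 and used Bedtools coverage for counting, keeping reads with single and with multiple alignments. The deposited values are raw counts, whole numbers of reads for each gene. Versions, genome build and strand setting are not given in the sources used here, so no coordinates or sequences are printed. Of the 98 symbols, 95 were current and 3 older names in the RefSeq table of ARS-UCD2.0.

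All 22200 rows with a read somewhere were quantile-normalised and used as log2(value + 1). The study's methods name quantile normalisation with edgeR, which could also mean upper-quartile scaling, so both were run. At least 50 reads in the higher library were required for calls, which were differences of 2-fold or more. Standard errors read exact Poisson bounds of each count through the normalisation and cover counting error only. The floor was set at 3 reads (0.169 to 0.232 CPM). With edgeR, TMM and upper-quartile factors were computed as alternatives. Other alternatives were library totals (CPM), also without RN18S1, a pseudocount of 5, at least 10 reads in any or every library, and rows summed by symbol. CPM without RN18S1 and the mitochondrial rows was added after seeing the data. The code was tested on simulated data. Read counts in every library are given for the mitochondrial genes, paralogue pairs, and the 4 largest and 4 smallest nuclear differences of 3 comparisons (muscle and P5 organoids against intestine, P10 against P5 organoids). ATP5MC2 shares, SDHA, SDHB, SDHC and the genes named between P10 organoids and intestine were chosen after their values were seen. Of the other lists, up to 4 genes with the largest differences are named, and TFAM was added after its value was seen. The genes and lists were chosen with earlier results of these data known. Scaling factors came from edgeR 4.0.16 and a check of the normalisation from limma 3.58.1, under R 4.3.3. The remaining steps ran under Python 3.11.15 with scipy 1.17.1, pandas 2.3.3 and numpy 2.4.6.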

Additional observations from a re-analysis of the deposited data

Results flagged for a closer look

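For 3 of the genes, the organoid libraries lay on opposite sides of intestine, past counting error and at least 2-fold apart from each other, with quantile normalisation and per library total. Each passage has 1 library, and the difference was not tested. SDHD was 0.22 higher than intestine on the log2 scale at P5 and -1.11 at P10, and the passages differed by -1.33. ATP8 was 1.48 higher at P5 and -1.88 at P10, and the passages differed by -3.36. ND6 was 0.91 higher at P5 and -0.43 at P10, and the passages differed by -1.34. As said above, reads of ND6 and its antisense partner cannot be told apart. Reads on the overlap of ATP8 and ATP6 cannot be assigned to 1 gene. With 1 library per passage, passage and culture cannot be told apart.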

How the results depend on the processing

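Of 173 values recomputed under the alternatives, 128 stayed within their counting interval or, for numbers of genes, within 1.5-fold, and 45 moved. Only medians can change sign, and none whose counting interval excluded 0 did. Medians near 0 did change sign. The mitochondrial median for muscle minus intestine went from -0.01 to 0.23 per library total. The nuclear median for P5 organoids minus intestine went from 0.03 to -0.01 with at least 10 reads in every library. No value moved with a pseudocount of 5, with at least 10 reads in any library or with rows summed by symbol. Summing rows could hardly move them, since each of these symbols is on a single row. The paralogue shares need no scaling. The median log2 difference of the nuclear genes between muscle and intestine, 0.97 over all 85, was 0.50 per library total, 0.83 without RN18S1, 1.51 with TMM, 1.67 with upper quartiles and 1.14 over the genes with 10 reads or more everywhere. The number at least 2-fold higher, 39, became 25, 59 and 64 per library total, with TMM and with upper quartiles. Of all genes, 24.0% were at least 2-fold higher, and 9.71%, 21.4% and 24.6% under these alternatives. For the mitochondrial genes the median was 0.23 per library total, 0.56 without RN18S1, 1.25 with TMM, 1.41 with upper quartiles and 0.13 with 10 reads or more everywhere. With TMM and upper quartiles 11 mitochondrial genes rather than 2 were at least 2-fold higher, against 21.4% and 24.6% of all genes. Between P5 organoids and intestine, the nuclear median moved to 0.27, 0.28 without RN18S1 and 0.22 without RN18S1 and the mitochondrial rows. Under all the library-size scalings 1 nuclear gene rather than 2 was at least 2-fold lower, against 20.5% to 22.7% of all genes. With the stricter minimum of 10 reads everywhere, 3 rather than 5 were at least 2-fold higher, against 14.8% of all genes. The mitochondrial median was -0.51 per library total, -0.50 without RN18S1, -0.68 with TMM and -0.65 with upper quartiles, and 1, 1, 3 and 3 mitochondrial genes were at least 2-fold lower, rather than 0. Of all genes, 20.6%, 20.5%, 22.7% and 22.3% were at least 2-fold lower under these scalings. Between P10 and P5 organoids the mitochondrial median was -1.14, -1.21, -1.21 and -1.25, and the nuclear median -0.28 without RN18S1 and the mitochondrial rows. The mitochondrial share without RN18S1 was 17.5% in intestine, 23.0% in muscle, 13.7% in P5 and 7.11% in P10 organoids, and 91.9%, 89.0%, 87.8% and 81.1% of all respiratory chain reads. The scalings moved the median of all genes between muscle and intestine from -0.11 to -1.28 per library total, -0.95 without RN18S1, -0.27 with TMM and -0.11 with upper quartiles. The share of higher genes among all past 2-fold was 44.0% in that comparison and 14.6%, 19.7%, 38.2% and 43.7% under these scalings. No paired analysis was possible because each condition has 1 library, and for the same reason no library could be left out.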
